A study of Mus musculus with 21 samples.

Results

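The response of the prostate of intact male mice to 17β-estradiol was measured on 9 of the 21 bead arrays of the study: 4 arrays of estradiol-treated and 5 of vehicle-treated intact males. A bead array reads each gene with 1 or more short oligonucleotide probes, and gives for each probe a brightness (intensity) and a p-value for its detection above background. Probes detected at p under 0.05 on 3 or more of the 9 arrays were taken, which left 21835 of 45259, and these carry 11839 genes with a single symbol. The other 12 arrays, from an experiment on castration and the soy isoflavone genistein, are used for values side by side.

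All mice were heterozygous FVB/N males, 8 to 12 weeks old, that carried a luciferase reporter driven by a thymidine kinase promoter with Slp-HRE2 androgen response elements; controls carried it too. Treated males kept their testes and were injected under the skin with 0.25 µg of estradiol per day, or 10 µg/kg, for 4 days in 0.1 ml of mineral oil with 0.5% ethanol. Vehicle males were injected without the hormone, and prostates were collected 24 hours after the last dose. The other experiment used males of the same line, injected for 5 days in mineral oil with 2% DMSO. It holds 3 arrays each of castrated vehicle, castrated genistein, intact vehicle and intact genistein males. Castrated males were injected from 4 days after surgery. All of these arrays were normalized and fitted together, so the castrated genistein arrays enter the estimate of spread. Pooling of animals and the lobes taken are not given in the labels. The p-values therefore measure only the spread between these samples, which may be technical.

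Estradiol acts through the nuclear receptors Esr1 and Esr2, which bind estrogen response elements, and through the membrane receptor Gper1. In the rodent prostate Esr1 lies mainly in the stroma and Esr2 mainly in the epithelium. In intact males estradiol also feeds back on the hypothalamus and pituitary, where it lowers gonadotropins and with them testicular testosterone, on which the secretory epithelium depends. Prolonged exposure to estrogen is known to give squamous change of the prostate epithelium.

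The arrays held signal of prostate. Probasin (Pbsn), the androgen-dependent secretory protein of the rodent prostate, had log2 levels of 9.36, 9.61, 10.39, 10.14 and 10.46 on vehicle arrays 1 to 5 and 9.27, 9.40, 8.88 and 10.25 on estradiol arrays 1 to 4. The secreted proteins Msmb, Spink1 and Tgm4, the luminal keratins Krt8 and Krt18 and the smooth muscle actin Acta2 were also detected on all 9 arrays. All 7 listed seminal vesicle proteins and 13 of the 14 listed skeletal muscle genes were measured too, among them the muscle actin Acta1 at 14.60 to 15.03.

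Between 44.2% and 47.0% of probes were detected per array, and median raw intensities ran from 145 to 171.9. Vehicle array 1 stood apart: on the first principal axis, which held 36.4% of the variance, it scored -74.9 against 10.6 to 28.7 for the other vehicle arrays and -15.6 to 16.7 for the estradiol arrays. Its mean correlation with its own group was 0.955, and the other vehicle arrays had 0.971 to 0.979. By the array numbers in the labels, all 4 estradiol arrays share a chip with vehicle arrays 1 and 2, whereas vehicle arrays 3, 4 and 5 lie on 2 other chips. On the second axis (15.2%) the estradiol arrays scored -19.9 to -12.8 and vehicle array 2 scored -11.5, whereas the vehicle arrays of the other chips scored 15.5 to 26.7. Vehicle array 1, although on the shared chip, scored 15.6 there. What this axis reflects was not tested. Differences are log2 levels with estradiol minus those with vehicle, so that 1 is a doubling. They are given over all 9 arrays. Square brackets after a difference or a list's median hold the values without vehicle array 1 and with chip as a block, a fit that rests on the shared chip. For single genes they are given where a sign turned or a value moved by over 1.5 times and reached 0.2 in size.

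**Figure D1:**
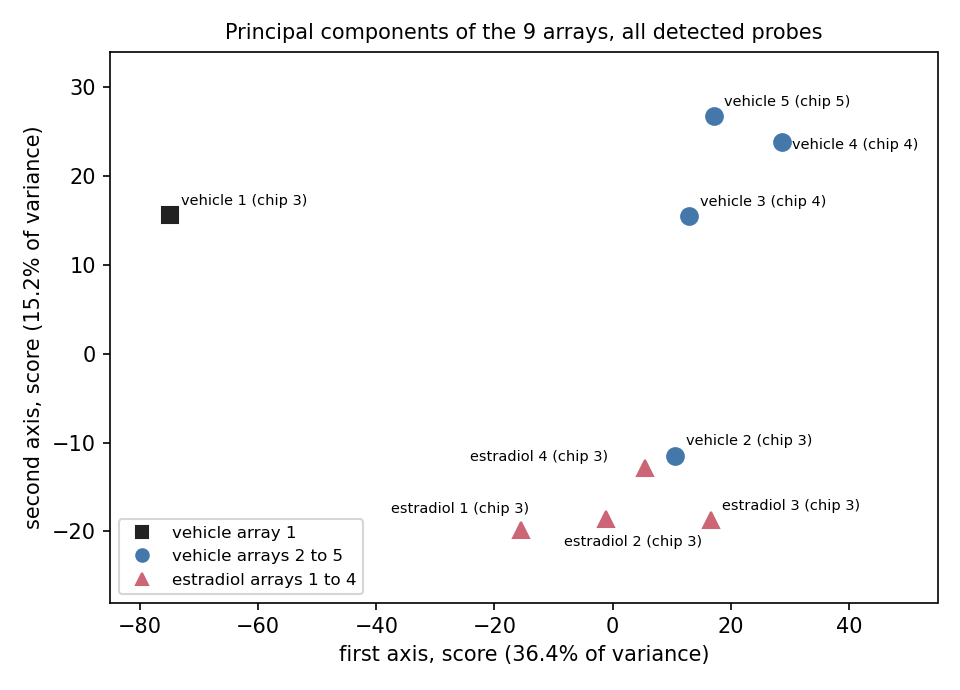
Scores of the 9 arrays on the first and second principal axes of the log2 levels of 21835 probes, each point an array labelled with its group, replicate and chip. Vehicle array 1 lies alone at -74.9 on the first axis, and on the second vehicle array 2 lies beside the estradiol arrays of its chip while vehicle array 1, of the same chip, scores 15.6.

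No probe passed the test for estradiol. In limma's moderated test over the 9 arrays, 0 of 21835 probes (0%) had a Benjamini-Hochberg adjusted p under 0.05, and the lowest adjusted p was 0.575. At an unadjusted p under 0.05 there were 1602 probes (7.34%), of which 816 (3.74%) were higher and 786 (3.6%) lower with estradiol. Without vehicle array 1 there were again 0 at the adjusted threshold, with 2659 (12.2%) at the unadjusted p, 6.29% higher and 5.89% lower, and a lowest adjusted p of 0.185. With chip as a block the same counts were 0 and 1814 (8.31%), 4.85% higher and 3.45% lower, and the lowest adjusted p was 0.219. Leaving out estradiol array 2 gave 0 and 1061, with a lowest adjusted p of 0.998.

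The number of arrays limits the precision, which the intervals show. For 10992 of the 11839 genes (92.8%) the 95% interval of the log2 difference lay wholly between -1 and 1. This is within a 2-fold change of the normalized level in either direction. Whether dim or very bright probes are compressed on this scale was not tested, so the intervals do not bound changes in RNA. The median standard error was 0.17 over all 9 arrays and 0.142 without vehicle array 1. The median SD between vehicle arrays was 0.28 per gene, or 0.197 without vehicle array 1, and between estradiol arrays it was 0.173. The groups did not overlap for 631 probes (2.89%), of which 347 (1.59%) lay higher and 284 (1.3%) lower on all 4 estradiol arrays. Without vehicle array 1 these were 785 (3.6%) and 651 (2.98%). Groups of fewer arrays fail to overlap more often by chance, so these shares cannot be set against those over all 9 arrays. The detection rule let 82 probes through that were detected on no vehicle array and 126 that were detected on no estradiol array. At its edge, 857 probes were detected on exactly 3 arrays, with a median log2 level of 5.13, and 1232 on exactly 2, with a median of 5.03.

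The gene with the lowest p was Setd3, the methyltransferase that modifies a histidine of actin. Its log2 levels were 8.52, 8.46, 8.76, 8.60 and 8.74 on vehicle arrays 1 to 5 and 7.77, 7.92, 7.97 and 7.98 on estradiol arrays 1 to 4, so every estradiol array lay below every vehicle array. The log2 difference was -0.71 (SE 0.12, unadjusted p = 9.46e-05), the limma adjusted p was 0.575, and it was -0.73 without vehicle array 1 and -0.58 with chip as a block. When all 21 arrays of the study were normalized and fitted together, Setd3 was the 1 probe of 21835 (0.00458%) past the threshold, at -0.70 (SE 0.098, limma adjusted p = 0.0157).

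Next came Ptpre, the protein tyrosine phosphatase epsilon. It measured 11.75, 11.75, 11.69, 11.84 and 12.01 on the vehicle arrays and 11, 11.23, 11.20 and 11.13 on the estradiol arrays, a log2 difference of -0.67 (SE 0.12). Again the groups did not overlap, although a second, dimmer probe of Ptpre had a difference of 0.14. Phka1, a regulatory subunit of the phosphorylase kinase that starts glycogen breakdown, measured 7.13, 7.05, 7.23, 7.25 and 7.58 on the vehicle arrays and 5.95, 6.50, 6.53 and 6.65 on the estradiol arrays. Estradiol array 1 was the lowest there, and the difference was -0.84 (SE 0.17), while its other probes had -0.040 and 0.0010.

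Tnfrsf10b, the mouse death receptor for the ligand TRAIL, had the largest difference among these genes, -0.87 (SE 0.19). Its levels were 8.06, 7.60, 7.22, 7.25 and 7.48 on the vehicle arrays and 6.35, 6.81, 6.91 and 6.51 on the estradiol arrays, with vehicle array 1 the highest. The other genes among the 10 with the lowest p on this side had differences of -0.74 to -0.54: Gpn2, a GTPase, -0.65; Mmp28, the matrix metalloproteinase epilysin, -0.59; Zfp2, a zinc finger protein, -0.67; Ptcd3, a protein of the mitochondrial ribosome, -0.54; Sez6l, a neuronal membrane protein, -0.74; and Fmo2, a flavin monooxygenase, -0.58 [-0.61 and -0.37]. For Mmp28 the other detected probes had differences of 0.47 and 0.81, above 0. The probe at 0.81 had a lower unadjusted limma p (0.00062) than the brightest probe (0.00073), so the direction of Mmp28 is not settled. Sez6l was detected on 5 vehicle arrays and 1 estradiol array, and the brightest probe of Mmp28 on 5 and 2. With estradiol both lay near background, and without the vehicle arrays neither would have passed the detection rule.

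On the higher side Krit1, the protein of cerebral cavernous malformation, had the largest difference, 0.79 [0.84 and 0.52] (SE 0.16). Its brightest probe measured 7.64, 7.80, 7.41, 7.22 and 7.18 on the vehicle arrays and 8.05, 8.36, 8.18 and 8.37 on the estradiol arrays. The other probes of Krit1 had differences of -0.48, -0.47 and -0.095, so 1 of 4 probes lay above 0. Taf8, a subunit of the general transcription factor TFIID, measured 5.32, 5.89, 5.14, 5.28 and 5.14 on the vehicle arrays and 6.10, 6.19, 6.04 and 6.21 on the estradiol arrays. Vehicle array 2 was the vehicle array nearest to the estradiol group, and the difference was 0.78 (SE 0.16), or 0.25 against that array alone on the shared chip.

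Of the 10 genes on the higher side, 3 were detected on no vehicle array, so that only a bound can be given for them. These passed the detection rule through the estradiol arrays alone, so their direction was partly set by that rule. The bound sets the mean of the bright group against, on each array of the dim group, the probe's own level or the lowest level of a detected probe, whichever is higher. It takes no account of the spread between arrays. Rhof, a small GTPase of filopodia, was at least 1.22-fold brighter with estradiol, with measured log2 means of 4.96 (SD 0.095, n = 5) and 5.57 (SD 0.16, n = 4) and a limma adjusted p of 0.575. Cd3d, a chain of the T cell receptor complex, was at least 1.14-fold brighter (adjusted p 0.575). Its measured means were 4.93 (SD 0.14, n = 5) and 5.47 (SD 0.15, n = 4), whereas Cd3e, Cd3g and the B cell gene Cd79b had differences of -0.073, 0.22 [0.12 and 0.35] and -0.051. Iyd, the iodotyrosine deiodinase of the thyroid, was at least 1.22-fold brighter (adjusted p 0.575), with measured means of 4.96 (SD 0.10, n = 5) and 5.56 (SD 0.27, n = 4). Of the remaining genes on this side, the sorting nexin Snx20 differed by 0.66 and the Src signalling inhibitor Srcin1 by 0.65. The homeobox factor Vax2 and the histidyl-tRNA synthetase Hars differed by 0.69 each, and the docking protein Gab2 by 0.65. Snx20 and Srcin1 were detected on 2 vehicle arrays each, Vax2 and Hars on 1 each, and all of them on 4 estradiol arrays. Their vehicle means of 4.93 to 5.13 lay near background. Without the estradiol arrays they would not have passed the detection rule, so their direction too was partly set by it.

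All 20 of these genes kept their sign without vehicle array 1 and with chip as a block, and none passed the adjusted threshold in either fit. They were chosen by their p on these 9 arrays, which the refits share, so the kept signs are no separate test. Krit1 and Mmp28 turned sign when all probes of a gene were averaged. The differences of the 20 genes were 0.534 to 0.874 in size, that is, less than a 2-fold change.

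**Figure D2:**
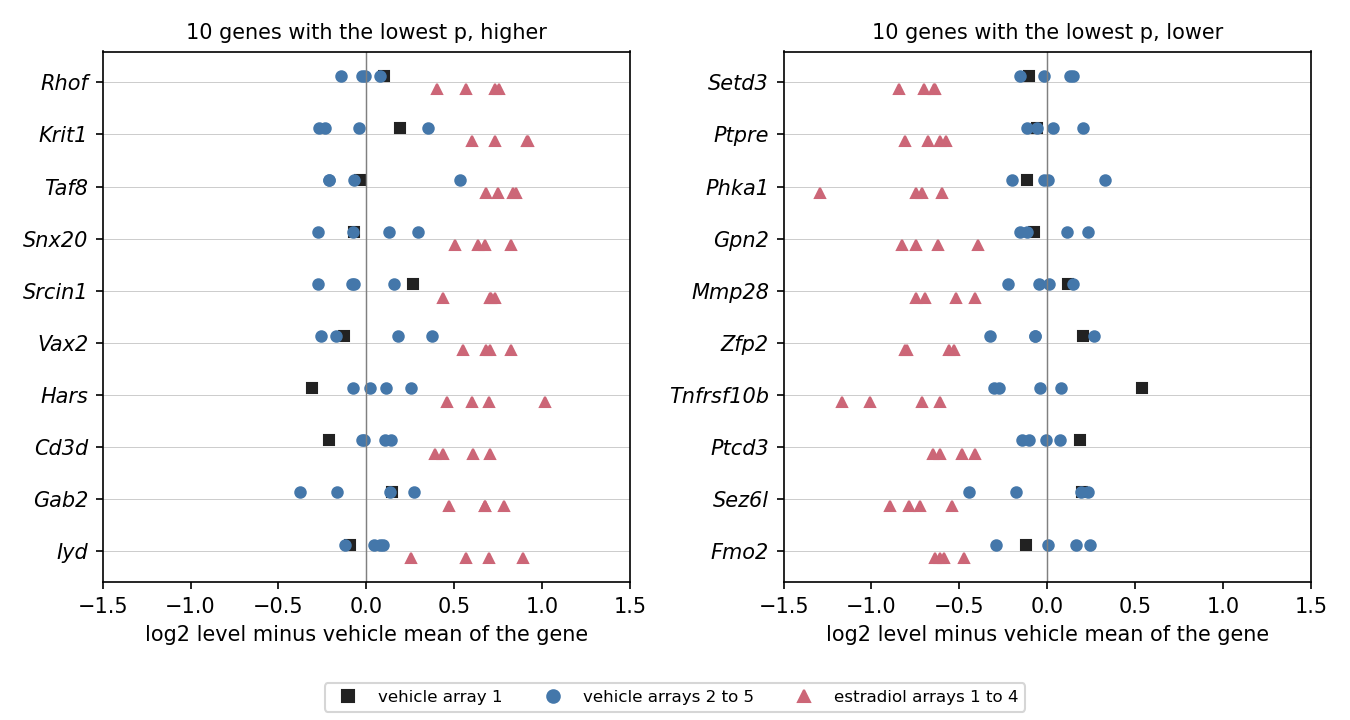
Log2 level of each array minus the vehicle mean of the gene, for the 10 genes with the lowest p on the higher side (left) and on the lower side (right); squares and circles are vehicle arrays, triangles estradiol arrays. The 20 genes were picked by low p on these arrays. Their groups do not overlap, as for 2.89% of all probes, and none of them passed the adjusted threshold.

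Leaving out vehicle array 1 brought other genes to the front. Adgrg7, an adhesion G protein-coupled receptor, measured 6.97, 5.16, 6.04, 5.53 and 5.59 on vehicle arrays 1 to 5 and 6.48, 6.76, 6.51 and 6.47 on the estradiol arrays. Vehicle array 1 lay above all estradiol arrays and the other vehicle arrays below them, so the difference was 0.70 over 9 arrays, 0.97 without it and 0.49 with chip as a block, with limma adjusted p-values of 0.68 over 9 arrays and 0.257 without it. The same held for Gk5, of the glycerol kinase family, at 0.65 and 0.86, although 1 estradiol array of it also lay above vehicle array 1. The interleukin-25 receptor chain Il17rb had differences of 0.47 and 0.68, cyclin L1 (Ccnl1) of 0.36 and 0.50, and the centrosome protein Cep68 of 0.37 and 0.53. With chip as a block, which keeps vehicle array 1, they were 0.35 for Gk5, 0.16 for Il17rb, 0.18 for Ccnl1 and 0.065 for Cep68. The lowest of the 3 detected probes of Ccnl1 differed by -0.30 over all 9 arrays.

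On the lower side Slc27a2, a very long chain acyl-CoA synthetase, measured 7.24, 8.33, 7.75, 8.37 and 8.29 on the vehicle arrays and 6.71, 7.19, 7.29 and 6.84 on the estradiol arrays. Vehicle array 1, at 7.24, lay among the estradiol values and the other vehicle arrays above them, and the difference was -0.99 over 9 arrays, -1.18 without it and -0.78 with chip as a block. Both detected probes of Slc27a2 gave nearly the same value, -0.99 and -0.97. The acyltransferase Agpat3 had differences of -0.68 and -0.84, the transferrin receptor Tfr2 of -0.51 and -0.64, the ribosomal RNA processing protein Rrp1 of -0.35 and -0.49, and proteinase 3 (Prtn3) of -0.58 and -0.85. With chip as a block they were -0.30 for Agpat3, -0.34 for Tfr2, -0.15 for Rrp1 and -0.29 for Prtn3. None of these 10 genes passed the adjusted threshold.

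The estrogen receptors were measured, and none passed the test. Esr1 measured 7.72, 7.25, 7.62, 7.62 and 7.19 on the vehicle arrays and 7.38, 7.32, 7.16 and 7.43 on the estradiol arrays, and the ranges overlap. The log2 difference was -0.16 (95% interval -0.48 to 0.17), and in tissue RNA fewer cells of a type and less RNA per cell cannot be told apart. Esr2 measured 6.33, 6.03, 5.21, 4.85 and 5.46 on the vehicle arrays and 6.45, 5.77, 6.01 and 6.02 on the estradiol arrays, a difference of 0.49 (interval -0.13 to 1.11). Without vehicle array 1 it was 0.68 (interval 0.13 to 1.22). Esr2 was detected on 3 of the 5 vehicle arrays and on all 4 estradiol arrays, so its lower vehicle values lay near background. Against vehicle array 2 alone, on the shared chip, Esr1 differed by 0.079. On the shared chip, where vehicle arrays 1 and 2 read 6.33 and 6.03, Esr2 differed by -0.12. Gper1 had a difference of -0.37 [-0.28 and -0.63] (interval -0.77 to 0.032), the coactivators Ncoa2 and Ncoa3 of 0.37 [0.48 and -0.081] and 0.25 [0.29 and 0.067], and the orphan receptors Esrra, Esrrb and Esrrg of -0.044 [-0.32 and 0.29], -0.28 [-0.47 and -0.050] and 0.030 [0.20 and -0.36]. Over the 10 measured receptors and cofactors the median was -0.0070 [0.037 and -0.099] with 0 called, and the progesterone receptor Pgr was not detected on 3 arrays.

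Of 30 listed estrogen-responsive genes 21 were measured, and 0 passed in either direction. Their median log2 difference was 0.023 [0.080 and 0.012], with 12 above 0 and 9 below, beside a median of 0.0078 over all 11839 genes. Of all genes 51.8% lay above 0 and 48.2% below, which is the yardstick for such counts in the other lists too. No list was tested as a set. Lactoferrin (Ltf), a classical estrogen target of the mouse uterus, measured 12.34, 13.44, 13.15, 13.71 and 13.84 on the vehicle arrays and 9.99, 13.18, 13.11 and 13.01 on the estradiol arrays. Estradiol array 1 lay more than 2 log2 units below every other array, and the difference was -0.97 [-1.21 and -0.57] (interval -2.31 to 0.37). Greb1, a coregulator of the estrogen receptor, had a difference of -0.44 [-0.32 and -0.73] (interval -1.27 to 0.39), with estradiol array 3 the lowest at 6.39. Cathepsin D (Ctsd), a lysosomal protease induced by estrogen in breast cells, measured 6.76, 6.58, 6.68, 6.82 and 6.67 on the vehicle arrays and 6.43, 6.50, 6.20 and 6.30 on the estradiol arrays. Here the estradiol arrays lay below all vehicle arrays, with a difference of -0.34 (SE 0.12, limma adjusted p 0.634).

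Cited1, a coactivator of the estrogen receptor, had the largest difference of the list, 1.27 (interval 0.15 to 2.38, limma adjusted p 0.645). It measured 7.11, 5.29, 7.65, 7.62 and 5.47 on the vehicle arrays and 8.01, 7.76, 8.42 and 7.39 on the estradiol arrays. The low values were those of vehicle arrays 2 and 5, whereas vehicle arrays 3 and 4 lay within the estradiol range. Igf1 had a difference of -0.053 [-0.35 and 0.46], the uterine ligand Wnt4 of -0.051, the secretory factor Xbp1 of -0.025 [0.16 and -0.38], Myc of 0.012 [0.21 and -0.45], cyclin D1 (Ccnd1) of 0.18 [0.10 and 0.45] and stanniocalcin Stc2 of 0.29. Lipocalin Lcn2 had 0.51 [0.54 and 0.84] (interval -0.33 to 1.34), with estradiol array 3 the lowest at 10.16 and estradiol array 4 the highest at 12.17.

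Secretory and androgen-dependent genes are described next, and whether the treatment acted like a loss of androgen was not tested. Of 13 measured secretory proteins, 0 passed the test, and 9 had differences below 0, with a median of -0.22, or -0.20 without vehicle array 1 and -0.16 with chip as a block. Leaving out estradiol array 4 gave -0.065 and leaving out vehicle array 3 gave -0.086. Pbsn, whose levels are given above, differed by -0.54 (interval -1.21 to 0.12). Vehicle arrays 3, 4 and 5 read above vehicle arrays 1 and 2, and the difference was -0.70 without vehicle array 1 and -0.036 with chip as a block. In castrated against intact vehicle males of the other experiment, Pbsn differed by -4.64.

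Abundant secretory transcripts lie near the top of the scale, which ends at a log2 level of 15.2 on every array, and whether their spread is compressed there was not tested. The β-microseminoprotein Msmb differed by -0.081 (interval -0.35 to 0.18), with a castration value of -2.97. The trypsin inhibitor Spink1 differed by 0.067 (interval -0.19 to 0.32), and by -5.44 after castration. The prostate transglutaminase Tgm4 differed by -0.26 and the zinc α2-glycoprotein Azgp1 by -0.26 [-0.20 and -0.41]. Pate4, a small secreted protein of the reproductive tract, had the lowest p of the list, with 14.85, 14.68, 14.75, 14.64 and 14.76 on the vehicle arrays and 14.60, 14.48, 14.01 and 14.49 on the estradiol arrays. All 4 estradiol values lay below the vehicle values, with a difference of -0.34 (SE 0.14, limma adjusted p 0.655), while its castration value was 0.32. Spink5, a protease inhibitor of squamous epithelia, differed by -1.19 (interval -2.93 to 0.56), with 9.23, 7.08, 8.49 and 4.75 on the estradiol arrays.

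Androgen-induced genes had a median of -0.084 over 18 measured genes, 8 above 0 and 10 below, and 0 called. Fkbp5, the immunophilin with the lowest castration value among them, measured 11.12, 11.06, 11.15, 10.94 and 11.50 on the vehicle arrays and 11.29, 10.65, 11.30 and 10.59 on the estradiol arrays. The groups overlap, and the difference was -0.19 [-0.20 and -0.13] (interval -0.61 to 0.22) beside -3.59 after castration. The prostein gene Slc45a3 differed by -0.094 [0.11 and -0.54], the protease Tmprss2 by -0.10 [0.059 and -0.49], the ornithine decarboxylase Odc1 by -0.12 [0.056 and -0.40] and Pmepa1 by 0.33 [0.22 and 0.46]. Vehicle array 1 lay above all other vehicle arrays for 10 of the 18 (55.6%, against 36.8% of all genes), and the median was 0.058 without it and -0.12 with chip as a block. Genes known to be held down by androgen or to mark the regressing gland had a median of 0.029 [-0.015 and 0.043] over 19 genes. Among them Igfbp3, which binds insulin-like growth factors, differed by 0.029, beside 2.36 after castration.

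The arrays of the other experiment gave further lists, drawn up after the values were seen. Genes that castration lowered by 1 log2 unit or more at an adjusted p under 0.05 numbered 388 of 11453 measured in both experiments (3.39%). With estradiol 252 of them (64.9%, against 48.2% of all genes) lay below 0 and 136 above, with a median of -0.074. Without vehicle array 1 the median was -0.015 (200 below, 188 above), and with chip as a block it was -0.25. Of 331 genes that castration raised (2.89%), 229 (69.2%, against 51.8% of all genes) lay above 0, with a median of 0.12, or 0.037 and 0.20 in these 2 fits. Vehicle array 1 lay above all other vehicle arrays for 190 of the 388 (49%) and below them for 162 of the 331 (48.9%), against 36.8% and 30.5% of all genes. Across 11453 genes measured in both experiments, the correlation between the estradiol and castration differences was 0.17 over all 9 arrays, 0.082 without vehicle array 1 and 0.23 with chip as a block. The comparisons share probes but no arrays, and each of the castrated and intact groups there has a chip of its own, so that castration and chip cannot be told apart.

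**Figure D3:**
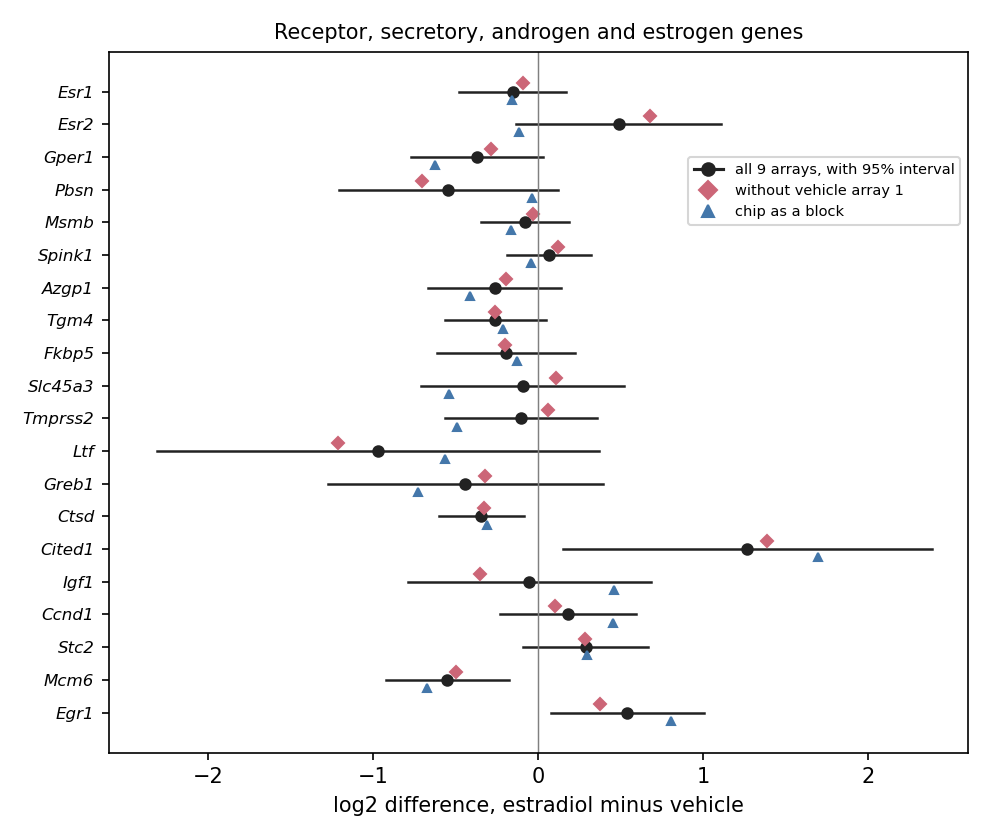
Log2 difference, estradiol minus vehicle, for 20 genes, namely receptor, secretory, androgen-dependent and estrogen-responsive genes, Mcm6 and Egr1; circles with lines are the fit over all 9 arrays with its 95% interval, diamonds the fit without vehicle array 1 and triangles the fit with chip as a block. Intervals of Spink1 and Msmb are narrow around 0, those of Ltf and Cited1 are wide, and Esr2 lies on the other side of 0 with chip as a block.

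The promoters of Pbsn and Ctsd are shown because Pbsn is the androgen-dependent gene named above and Ctsd the estrogen-responsive gene with the lowest p. Both come from RefSeq (build GRCm38.p6), run 5′ to 3′ on the gene's strand for 300 bases around the transcription start, and have in capitals, on either strand, the cores of the estrogen response element (GGTCA, or TGACC on the other strand) and of the androgen response element (AGAACA, or TGTTCT). Pbsn lies at chrX:77853451-77853750 and Ctsd at chr7:142387778-142388077, both on the minus strand.
Pbsn: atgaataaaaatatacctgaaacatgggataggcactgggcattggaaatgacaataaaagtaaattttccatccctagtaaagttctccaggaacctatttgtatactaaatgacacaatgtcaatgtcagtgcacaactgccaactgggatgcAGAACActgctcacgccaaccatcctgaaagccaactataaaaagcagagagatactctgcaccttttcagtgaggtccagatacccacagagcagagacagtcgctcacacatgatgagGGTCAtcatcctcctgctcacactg
Ctsd: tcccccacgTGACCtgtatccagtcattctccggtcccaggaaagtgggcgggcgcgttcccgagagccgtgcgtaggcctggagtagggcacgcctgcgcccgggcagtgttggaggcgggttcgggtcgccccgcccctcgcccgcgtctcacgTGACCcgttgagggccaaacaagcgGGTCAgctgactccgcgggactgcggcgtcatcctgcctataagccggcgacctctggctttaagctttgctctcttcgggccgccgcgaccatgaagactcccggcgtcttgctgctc
The Pbsn promoter holds 1 GGTCA and 1 AGAACA, and the Ctsd promoter holds 3 GGTCA and 0 AGAACA. Among all 32851 promoters of the table, GGTCA stood in 40.5% and AGAACA in 19%. The full estrogen element, GGTCA and TGACC spaced by 3 bases, overlaps the core motif and stood in 0.07%. The full androgen element, AGAACA and TGTTCT spaced by 3 bases, stood in 0.00913%. Of the 10 genes listed above as lower, 9 had a promoter in the table, with GGTCA in 7 of 13 promoters and AGAACA in 2. Of the 10 listed as higher, 5 had one, with GGTCA in 2 of 6 promoters and AGAACA in 0. The full estrogen element and the full androgen element stood in 0 of these promoters. A match of this kind is a description of the letters, and these windows say nothing about binding.

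Enzymes that make or break down steroids had a median of -0.11 [-0.12 and 0.086] over 11 measured genes. Hsd17b1, which makes estradiol from estrone, measured 5.46, 5.72, 5.19, 5.65 and 5.71 on the vehicle arrays and 5.09, 5.29, 5.19 and 4.91 on the estradiol arrays. It was detected on 4 vehicle arrays and 1 estradiol array, so it lay near background, and its difference was -0.43 (SE 0.15, limma adjusted p 0.634). The estradiol hydroxylase Cyp1b1 differed by -0.17 [-0.14 and 0.28]. Genes of prolactin and growth hormone signalling, which estradiol can reach through the pituitary, had a median of 0.0054 [-0.090 and 0.11] over 10 genes, with Stat5a at -0.36 [-0.13 and -0.81], Socs2 at 0.10 [0.047 and 0.20], Cish at -0.11 and the inhibitor Pias3 at 0.24 [0.31 and 0.10]. In both lists 0 genes passed.

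Cell cycle genes had a median of -0.082 [-0.086 and -0.097] over 22 measured genes, 15 of them below 0, and 0 called. Mcm6, a subunit of the replicative helicase, measured 8.18, 7.97, 7.66, 7.62 and 8.35 on the vehicle arrays and 7.42, 7.49, 7.22 and 7.50 on the estradiol arrays. The groups did not overlap, and the difference was -0.55 (SE 0.17, limma adjusted p 0.633), with a second probe at -0.25. The other helicase subunits Mcm2, Mcm3, Mcm4, Mcm5 and Mcm7 had differences of -0.080, -0.032 [0.094 and -0.25], -0.17, -0.051 and -0.13. Cdk1 differed by -0.084 [-0.0068 and -0.40] and Top2a by 0.16 [0.44 and -0.50].

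Squamous differentiation genes had a median of -0.0073 over 10 genes, with 0 called. The median was -0.29 without vehicle array 1, which lay below all other vehicle arrays for 8 of the 10 (80%, against 30.5% of all genes), and 0.48 with chip as a block. Krt10, the keratin of suprabasal squamous cells, measured 7.47, 8.97, 8.89, 8.62 and 9.15 on the vehicle arrays and 8.92, 9.17, 9.47 and 9.05 on the estradiol arrays. Vehicle array 1 was far below the rest, and the difference was 0.54 over 9 arrays, 0.25 without it and 0.94 with chip as a block. Involucrin (Ivl) differed by -0.40 [-0.66 and 0.47] and Sprr1a by 0.090 [-0.32 and 0.91], and the squamous keratins Krt1, Krt6a, Krt13 and Krt16 were not detected on 3 arrays.

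Immediate early genes had a median of 0.11 [0.031 and 0.23] over 17 genes, 13 above 0, and 0 called. Egr1, an early growth response factor, measured 9.31, 10.13, 10.08, 10.46 and 9.94 on the vehicle arrays and 10.46, 10.34, 10.80 and 10.50 on the estradiol arrays, a difference of 0.54 (interval 0.077 to 1.00). Vehicle array 4, at 10.46, was the 1 vehicle array within the estradiol range. Fosb lay the other way at -0.86 [-1.17 and 0.10] (interval -1.78 to 0.053), with vehicle arrays 3, 4 and 5 at 6.74, 7.29 and 6.20 and the other 6 arrays at 4.87 to 5.41. Those 6 arrays share the chip, and with chip as a block Fosb differed by 0.10. Fos differed by 0.28 [0.079 and 0.91], Jun by -0.44 [-0.63 and -0.015] and Atf3 by -0.43.

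Heat shock genes had 9 of 10 differences below 0 and a median of -0.23, or -0.27 without vehicle array 1. With chip as a block the median was 0.11, on the other side of 0. The mitochondrial chaperonin Hspd1 measured 11.73, 11.46, 11.57, 11.72 and 11.82 on the vehicle arrays and 11.18, 11.36, 11.43 and 11.38 on the estradiol arrays. The estradiol values lay below all vehicle values, with a difference of -0.32 (SE 0.12, limma adjusted p 0.634). Folding proteins of the endoplasmic reticulum, on which secretion rests, had a median of 0.041 over 21 genes, 0.18 without vehicle array 1 and -0.27 with chip as a block. Vehicle array 1 lay above all other vehicle arrays for 17 of the 21 (81%, against 36.8% of all genes). The chaperone Hspa5 differed by -0.32 (interval -0.73 to 0.084). In both lists 0 genes passed.

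Interferon response genes had a median of 0.11 [0.019 and 0.012] over 19 genes, 14 above 0. Mx1, an antiviral GTPase, had the lowest p of the list, with 6.33, 6.24, 5.98, 5.35 and 6.29 on the vehicle arrays and 5.71, 5.23, 4.98 and 5.35 on the estradiol arrays. Vehicle array 4 alone lay within the estradiol range, and the difference was -0.72 (SE 0.22, limma adjusted p 0.633). Ifit3 differed by 0.40, Isg15 by 0.29 [0.042 and 0.70] and Irf7 by 0.022 [0.0075 and -0.29]. Again 0 genes passed.

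Lipid genes were spread around 0. Cholesterol synthesis and uptake genes had a median of -0.080 [-0.033 and -0.14] over 16 genes, 11 below 0. Insig1, which holds back cholesterol synthesis, differed by -0.57 [-0.65 and -0.22] (interval -1.14 to -0.0075), with estradiol arrays 1 and 2 at 8.16 and 7.75 and estradiol arrays 3 and 4 at 8.84 and 8.89. Fatty acid synthesis genes had a median of -0.067 [0.084 and -0.070] over 15 genes, with the synthase Fasn at -0.57 (interval -1.29 to 0.15), Srebf1 at 0.18 and the desaturase Fads2 at 0.73. In both lists 0 genes passed.

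The 5 further pathway lists held 0 called genes. Glucocorticoid-inducible genes had a median of 0.059 [0.014 and 0.021] over 16 genes, with Sgk1 at 0.056 [0.29 and -0.21] and Tsc22d3 at -0.22 [-0.22 and -0.098]. Polyamine genes had a median of -0.044 [0.012 and -0.082] over 6 genes, with the decarboxylase Amd2 at -0.38 [-0.23 and -0.49]. Xenobiotic response genes had a median of -0.11 [-0.17 and 0.16] over 10 genes, with Gclc, of glutathione synthesis, at -0.24 [-0.26 and -0.14]. Circadian clock genes had a median of 0.023 [0.11 and -0.11] over 13 genes. The clock output factor Dbp differed by 0.58 [0.59 and 0.17] (interval 0.090 to 1.07), and by -0.19 against vehicle array 2 alone. Aquaporins had a median of 0.034 [-0.16 and 0.14] over 9 genes, of which Aqp2 is described below.

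Markers of cell types were read in the same way, and 0 of them passed the test. Luminal markers had a median of -0.16 [-0.064 and -0.29] over 11 genes, 9 below 0, with Krt8 at -0.16 [-0.064 and -0.25], Krt18 at -0.16 [-0.044 and -0.35] and E-cadherin (Cdh1) at -0.31. The tight junction protein Cldn3 was 1 of the 2 above 0, with 11.30, 11.75, 11.75, 11.63 and 11.69 on the vehicle arrays and 11.97, 12.04, 11.95 and 11.96 on the estradiol arrays. Its groups did not overlap, with a difference of 0.36 (SE 0.13). Cd24a was detected on no estradiol array and on 4 vehicle arrays, and was at least 1.06-fold brighter with vehicle at a limma adjusted p of 0.633. It passed the detection rule through the vehicle arrays alone. Its measured means were 5.31 (SD 0.18, n = 5) and 4.86 (SD 0.23, n = 4).

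Basal markers had a median of -0.018 [0.0015 and -0.032] over 11 genes, with Krt5 at -0.057 [0.027 and -0.64], Krt14 at 0.052, Trp63 at 0.12 [0.24 and -0.095] and the integrin Itga6 at -0.45 [-0.27 and -0.84]. Smooth muscle markers had 11 of 13 differences above 0 and a median of 0.23, or 0.27 without vehicle array 1 and 0.33 with chip as a block. Leaving out vehicle array 2 gave 0.090 and leaving out vehicle array 5 gave 0.14. Pgm5 had the largest, 0.48 (interval -0.11 to 1.06), with 11.05, 10.15, 10.66, 11 and 9.71 on the vehicle arrays and 11.08, 11.03, 11.19 and 10.66 on the estradiol arrays, and vehicle arrays 2 and 5 were the lowest. The calponin Cnn1 differed by 0.36 [0.32 and 0.61], the kinase Mylk by 0.28 and the actin Acta2 by -0.038.

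Fibroblast markers had a median of 0.080 [0.027 and 0.23] over 13 genes with Sparc at 0.18, and endothelial markers one of 0.011 [-0.068 and 0.13] over 13 with Pecam1 at -0.22 [-0.24 and -0.055]. Macrophage markers had a median of -0.018 [-0.13 and 0.30] over 12 genes, with Aif1 at 0.30 [0.15 and 0.54]. Of 12 lymphocyte markers 4 were measured, with a median of 0.085 [0.0028 and 0.18], and of 8 neutrophil markers 3, with a median of 0.28 [0.14 and 0.26] and the receptor Csf3r at 0.21. Adipocyte markers had a median of 0.025 [-0.16 and 0.29] over 9 genes with leptin (Lep) at 0.56 [0.51 and 0.89], urothelial markers one of -0.0069 [-0.20 and 0.32] over 7 with Upk1b at -0.27 [-0.34 and -0.12], and nerve and neuroendocrine markers one of 0.12 [0.18 and 0.094] over 5 with Chga at 0.24.

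Markers of neighbouring tissues varied from array to array in both groups. The summed linear level of the 7 seminal vesicle proteins was 128000 on vehicle array 1, 59300 to 87300 on the other vehicle arrays and 67700 to 105000 on the estradiol arrays. Their median difference was 0.14, 0.53 without vehicle array 1 and -1.07 with chip as a block, and vehicle array 1 lay above the other vehicle arrays for all 7 (100%, against 36.8% of all genes). Svs4, with the lowest p of the list, differed by 0.15 (interval -0.19 to 0.48), and Svs1 ran from 8.06 on vehicle array 5 to 14.64 on vehicle array 1.

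The summed level of the 13 measured skeletal muscle genes was 154000 on vehicle array 1, 248000 to 280000 on the other vehicle arrays and 151000 to 265000 on the estradiol arrays. Their median difference was -0.036, 0.060 with chip as a block and -0.37 without vehicle array 1, which lay below the other vehicle arrays for 11 of the 13 (84.6%, against 30.5% of all genes). Estradiol array 1 was the lowest estradiol array for Actn3, at 10.87 against 12.13 to 12.37. The 4 measured red blood cell genes had a median of -0.71, -0.94 without vehicle array 1 and 0.28 with chip as a block. Alas2, of red cell heme synthesis, measured 9.56, 9.57, 10.47, 11.89 and 10.66 on the vehicle arrays and 9.56, 9.64, 9.48 and 9.94 on the estradiol arrays. The high values were those of vehicle arrays 3, 4 and 5, and within the shared chip the difference was 0.093. The part of these tissues in other differences was not tested.

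**Figure D4:**
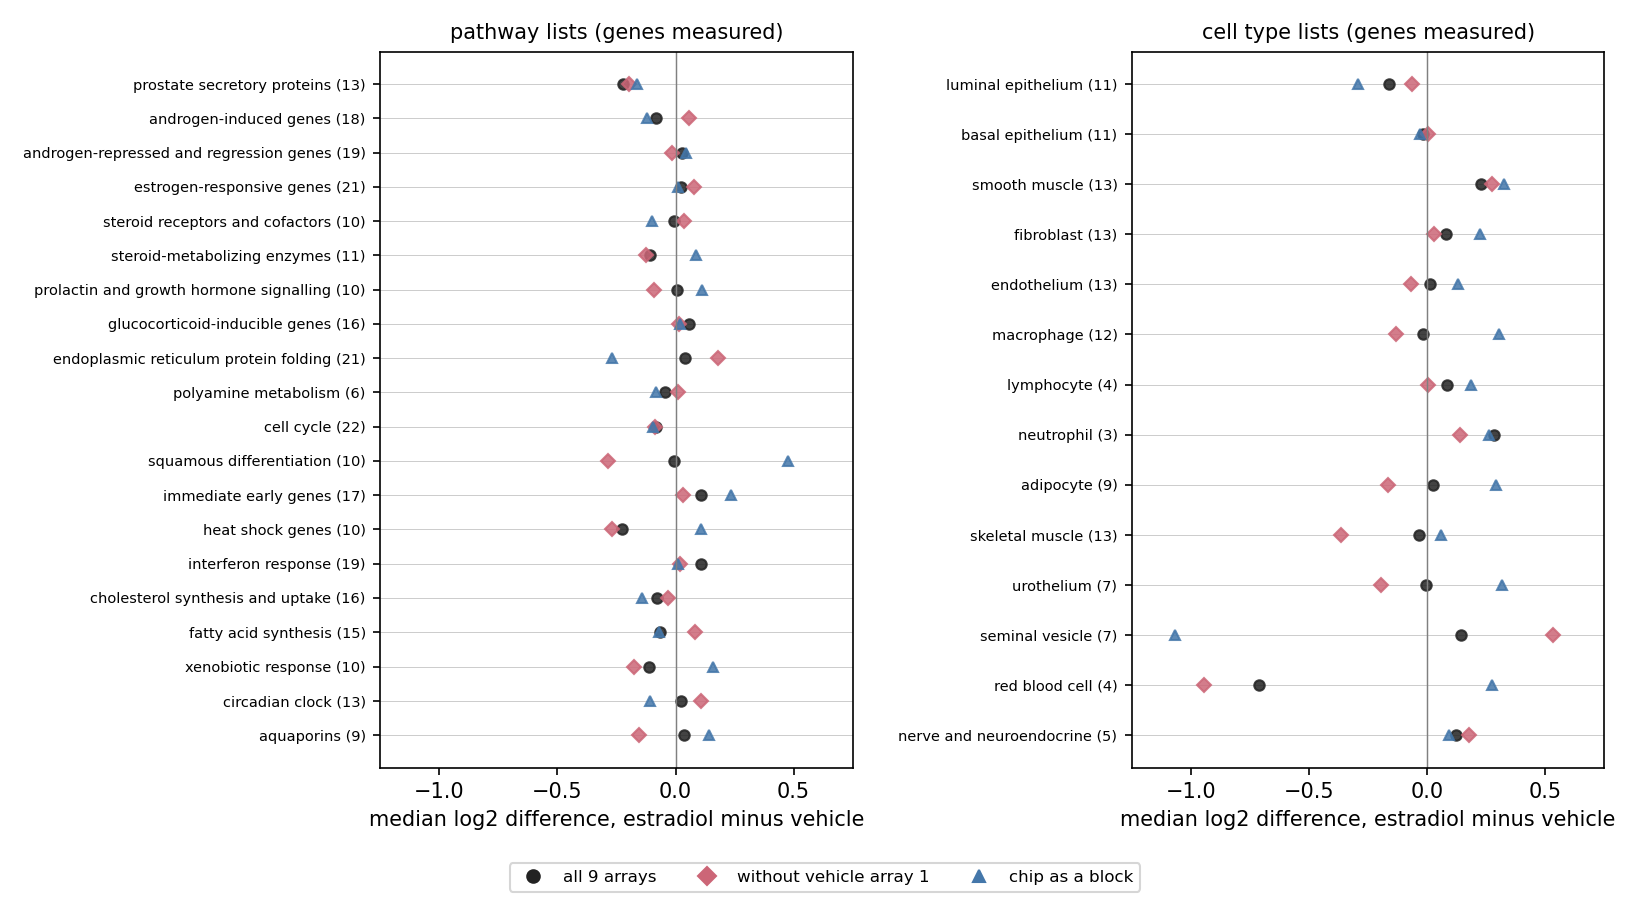
Median log2 difference, estradiol minus vehicle, of each pathway list (left) and cell type list (right), with the number of genes measured in brackets; circles are the fit over all 9 arrays, diamonds the fit without vehicle array 1 and triangles the fit with chip as a block. Seminal vesicle, red blood cell and squamous lists shift most between these fits.

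The genes with the largest differences were other than those with the lowest p. A total of 14 genes, chosen after their values were seen, differed by at least 1 log2 unit, 10 of them higher and 4 lower with estradiol, and the groups overlapped for each. In 9 of the 10 higher genes the values lowest of all were those of vehicle arrays 2 and 5. The water channel Aqp2 measured 10.66, 6.05, 10.35, 10.35 and 5.42 on the vehicle arrays and 10.56, 10.90, 11.33 and 9.83 on the estradiol arrays, a difference of 2.09 (interval -0.30 to 4.48, limma adjusted p 0.729). Vehicle arrays 1, 3 and 4 lay within the estradiol range, and vehicle arrays 2 and 5 more than 3 log2 units below it. Both detected probes showed this, with differences of 2.09 and 1.71. The aldo-keto reductase Akr1cl, at 9.13, 4.62, 9.09, 8.61 and 5.13 on the vehicle arrays, and the lens crystallin Crygc, at 7.79, 5.77, 10.15, 10.06 and 5.78, had the same 2 low arrays. So had the defensin Defb42, the channel Aqp9 and the cell cycle gene Rprm, with differences of 1.50 [1.58 and 2.82], 1.16 and 1.24. For the ion transport regulator Fxyd4, which differed by 1.25 [1.09 and 2.20], vehicle array 1 was low as well, at 9.88 beside 9.22 and 9.66.

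Kiss1, which encodes the kisspeptin peptide of the reproductive axis, was the other higher gene of this size. It measured 7.10, 5.58, 5.98, 5.36 and 5.10 on the vehicle arrays and 9.58, 8.47, 5.42 and 7.37 on the estradiol arrays, a difference of 1.89 (interval 0.33 to 3.45, limma adjusted p 0.634). Estradiol arrays 1, 2 and 4 lay above all vehicle arrays, and estradiol array 3 lay among them. Without vehicle array 1 the difference was 2.21 and with chip as a block 1.37. On the lower side the metalloproteinase Mmp7 measured 7.83, 8.47, 9.22, 8.80 and 9.02 on the vehicle arrays and 7.37, 8.33, 6.24 and 8.63 on the estradiol arrays, a difference of -1.03 [-1.24 and -0.51] (interval -2.02 to -0.035). Estradiol arrays 1 and 3 lay below all vehicle arrays. The cardiac actin Actc1 had -1.15 [-1.51 and -0.30], with estradiol array 1 at 7.24, and the urinary protein Mup2 had -1.02 [-1.81 and 0.90], with vehicle array 4 at 12.05.

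**Figure D5:**
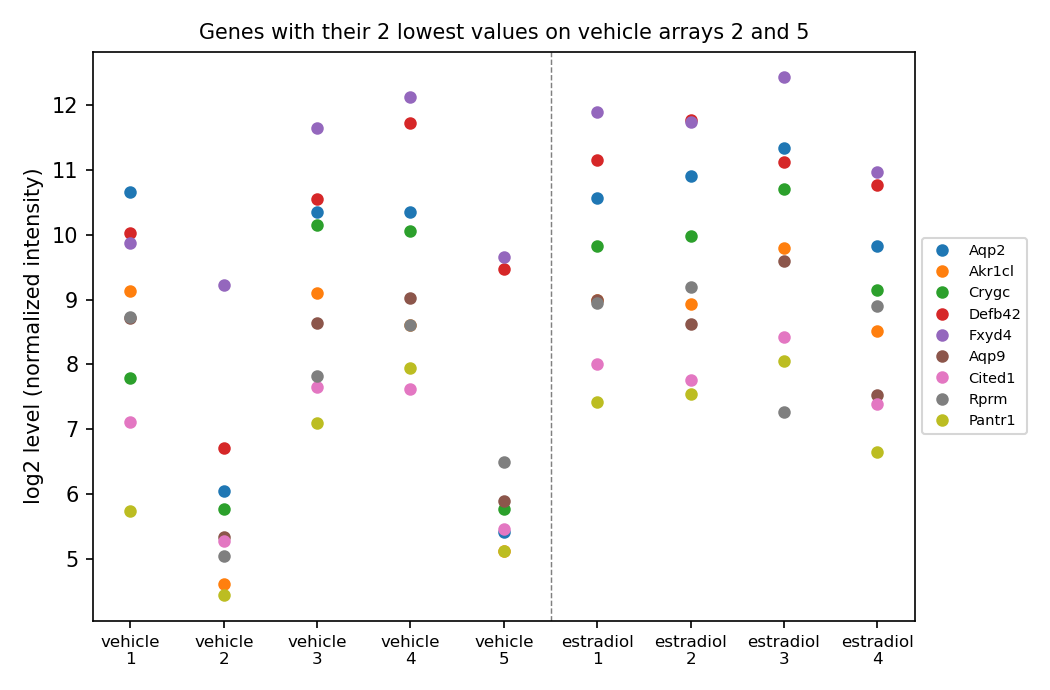
Log2 level on each of the 9 arrays for the 9 genes with a difference of at least 1 log2 unit whose 2 lowest values stand on vehicle arrays 2 and 5. For Aqp2 vehicle arrays 1, 3 and 4 read 10.66, 10.35 and 10.35, within the estradiol range, and vehicle arrays 2 and 5 read 6.05 and 5.42.

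Genistein was given to intact males of the other experiment at 300 µg per mouse per day, or 10 µg/g, for 5 days, so dose and days differ from those of estradiol and the values stand side by side only. The log2 differences were 0.034 with genistein and -0.54 with estradiol for Pbsn, -0.14 and -0.19 for Fkbp5, 0.23 and -0.16 for Esr1, and 0.99 and 1.27 for Cited1. For Setd3 they were 0.025 and -0.71, for Ptpre -0.12 and -0.67, and for Kiss1 0.052 and 1.89.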

How the data were processed

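Prostate RNA of 21 samples was measured on Illumina mouse bead arrays, 9 of them from the estradiol experiment. The authors' deposited table holds a raw, non-normalized intensity and a detection p-value per probe and array, per the file headers, and, per the submitters' processing notes, BeadStudio was used. Their processed intensity values served as an alternative. Here intensities were background-corrected and quantile-normalized with neqc (offset 16), and log2 values were fitted with limma 3.58.1 in R 4.3.3, two-sided, with Benjamini-Hochberg adjustment over 21835 detected probes and a threshold of 0.05. Each group is given in the labels, and chips were read from the array identifiers there; 1 chip holds 6 of the arrays.

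A gene is represented by its brightest detected probe; 34872 probes have 1 symbol, 18 several and 10369 none in the platform annotation. Genes were named by rule: the 10 of lowest p per direction, 5 more per direction without vehicle array 1, the member of lowest p in each of 34 lists, and a fixed set that held Esr1, Esr2, Pgr, Pbsn, Fkbp5 and Prlr, of which Prlr has no probe named here; some items are not reported here. Other list members are given as examples, chosen after their values were seen. The members and lists were chosen with earlier results of these data known, and 393 of 522 listed genes were measured. Deviations of same-numbered arrays correlated at 0.34, 0.034, 0.23 and 0.043, and those of differently numbered arrays at -0.3 to 0.13. The main fit did not take the numbers to pair the samples, and whether they do is not settled by these values. A fit with replicate as a block is given below. The procedure was tested on simulated data. Promoters come from RefSeq (GRCm38.p6).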

Additional observations from a re-analysis of the deposited data

Results flagged for a closer look

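In 12 of 142 groups of values checked, 1 array lay far from the rest of its group relative to the group's range; chance gives about 1 in 20. That rate is no yardstick here, since Ccnl1, Rrp1, Prtn3 and Adgrg7 were named because leaving out vehicle array 1 lowered their p. The values are log2 levels. Vehicle array 1 had the highest Ccnl1 at 8.75 against 8.15 for the next, the lowest Rrp1 at 5.34 against 6.02 and the lowest Prtn3 at 4.81 against 5.97, and its score on the first principal axis was -74.9 against 10.6 for the next vehicle array. Vehicle array 2 had the highest Taf8 at 5.89 against 5.32 and the lowest Cd24a at 5.00 against 5.36. Vehicle array 4 had the highest Sparc at 13.4 against 13. Estradiol array 1 had the lowest Actn3 at 10.9 against 12.1, and estradiol array 2 the highest Adgrg7 at 6.76 against 6.51. Estradiol array 3 had the lowest Srcin1 at 5.51 against 5.78, the lowest Upk1b at 10.3 against 10.9 and the highest Aif1 at 7.65 against 7.38.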

How the results depend on the processing

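The count of probes past the adjusted threshold was 0 in every fit run but 2: 1 lower (Setd3, -0.702) with the 21 arrays fitted together, and 1 higher (a probe unnamed here, 2.30, adjusted p 0.0316) with chip as a block and without vehicle array 1, a fit added after the data were seen in which vehicle array 2 alone is set against the estradiol arrays and is assumed to vary like the others. Over all 9 arrays that probe differed by 0.68; the cause was not tested. Leaving out each array in turn gave 0 to 0 calls, with 1061 to 2659 probes at an unadjusted p under 0.05. With the replicate block there were 0 calls and 1306 such probes. Array weights gave 3321 and a lowest adjusted p of 0.0722, and the unfiltered 45259 probes gave 2881. Median scaling moved the median of all genes to 0.164 and split 2768 such probes into 2555 higher and 213 lower, against 816 and 786. Among named genes the sign turned for Svs4 (-0.003), Alas2 (0.0934) and Esr2 (-0.117) with chip as a block or on the shared chip alone. It turned for Amd2 (0.0108), Dbp (-0.187), Pecam1 (0.042), Alas2 (0.0901) and Esr1 (0.0795) against vehicle array 2 alone, and with chip as a block and without vehicle array 1. It also turned for Esr1 (0.0223) with median scaling and for Krit1 (-0.0637), Mmp28 (0.23) and Itga6 (0.102) when all probes of a gene were averaged; the cause was not tested. In 1680 other gene and setting pairs sign and call stayed. List medians turned sign for 11 of 34 lists with chip as a block, 10 without vehicle array 1 and 15 with both; for 14 they did with median scaling, which moves all genes up. Mup2 turned sign with chip as a block (0.90).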

Other observations

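Probes of 1 gene did not always lie on the same side of 0. The brightest probe had a difference of 0.36 for Ccnl1, 0.33 for Pmepa1, 0.18 for Sparc and 0.48 for Pgm5. Another probe of these genes had -0.30, -0.11, -0.26 and -0.074. The brightest probes of Itga6 and Pecam1 had -0.45 and -0.22, and another probe of each had 0.42 and 0.11. Of 4596 genes with more than 1 detected probe, 20 had probes at an unadjusted p under 0.05 in both directions. For Cstf3, a factor of messenger RNA cleavage, 1 probe had a log2 difference of 0.54 (SE 0.15) and another -0.44 (SE 0.18). For Etfdh, which passes electrons to ubiquinone, the brightest probe had -0.45 (SE 0.14) and another 0.60 (SE 0.20). For Ecpas, a proteasome adaptor, the brightest probe had -0.43 (SE 0.15) and the others in question 0.51 and 0.35. Cstf3, Etfdh and Ecpas were chosen after their values were seen, and none of the probes passed the adjusted threshold. Krit1 and Mmp28, named above by their low p, were also among the 20.

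Low values shared by 1 pair of vehicle arrays were counted over all probes. For vehicle arrays 2 and 5, which lie on different chips, 5 probes were at least 2 log2 units and 28 at least 1 below all other arrays; any other pair of vehicle arrays had at most 1 and 2. The 5 were both probes of Aqp2 and those of Akr1cl, Crygc and Serpina1f, the last a serine protease inhibitor of the epididymis.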
